A study of Mus musculus with 18 samples.

Results

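The 9 genes described here encode ligands and receptors of the epidermal growth factor (EGF) family and 2 proteins that act on them. They are the ligand genes Ereg, Hbegf, Areg, Tgfa and Nrg1, the receptor genes Egfr and Erbb2, the receptor inhibitor gene Errfi1 and the ligand-releasing protease gene Adam17. They were chosen by symbol, with their group means already known, and all 9 had a row in the table of enteric glial cells (EGCs, 13452 genes), while 3 of them (Hbegf, Errfi1 and Adam17) also had one in the table of bone-marrow-derived macrophages (BMDMs, 11200 genes). Together the tables list 14332 genes. EGC cultures were grown from the muscle layer of the small bowel of adult mice, labelled Bl6 and given as C57BL/6 in the methods. They were kept for 24 h with IL-1β (10 ng/ml) or with vehicle, as 3 libraries in each group. BMDMs in all groups came from adult mice described as IL1R1-/-, which lack the IL-1 receptor gene by genotype, and were exposed for 3 h to medium of IL-1β-treated EGCs (CM-IL1), to medium of vehicle-treated EGCs (CM-Veh) or to RPMI, with 4 libraries in each group. The study describes the RPMI cells as untreated. According to its methods, the differentiation medium of the EGCs held added EGF. Whether EGF was present during the exposure to IL-1β or vehicle is not stated. The study describes the cultures as mostly glia, with few neurons and fibroblasts. Whether the libraries of a group came from separate animals is not stated.

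The deposited values are the authors' means of each group, taken here as CPM (sequenced reads scaled to a common library total). They come from 3′ tag libraries that give 1 fragment per transcript and need no division by gene length. No value per library is given, so depth and the spread between libraries could not be computed, and no difference was tested here. The p-values of the authors' own comparisons, which the tables also hold, were not used. A gene is called higher or lower here where the ratio of 2 group means was past 1.5-fold. This describes size only, and a mean of a few CPM carries an error that cannot be stated. Since the members were chosen with these means known, the counts of members are descriptions, and the share of all genes past the same fold is given beside them.

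EGF family ligands are made as membrane proteins whose outer part is cut off by metalloproteases, above all ADAM17, and then binds receptors on the same or a neighbouring cell. Ligand binding pairs the receptors, and the signal runs through adaptor proteins to the RAS-ERK and PI3K-AKT relays, which switch on early response genes and genes of feedback inhibitors. Epiregulin, HB-EGF, amphiregulin and TGF-alpha bind the EGF receptor, neuregulin-1 binds ERBB3 and ERBB4, and ERBB2 has no known ligand of its own but serves as a partner of the other receptors. Neuregulin signalling through ERBB3 is known for its role in glial cells of neural crest origin.

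The labelled cell types were checked against their markers. All 6 glial markers had a row in the EGC table, with a summed mean of 1256 CPM with IL-1β and 1441 CPM with vehicle, and none had one in the BMDM table. The 5 fibroblast markers were also present in EGC cultures, with sums of 12104 CPM with IL-1β and 13991 CPM with vehicle, far above those of the glial markers and carried by the abundant matrix genes Dcn, Col1a1 and Col3a1. The 5 neuronal markers summed to 300.5 CPM with IL-1β and 436.5 CPM with vehicle, and the 5 smooth muscle markers to 229.6 CPM with IL-1β and 223.2 CPM with vehicle. Of the 6 macrophage markers, 4 had a row in the EGC table (155.7 CPM with IL-1β and 135.5 CPM with vehicle), while Adgre1 and Ptprc had none. In BMDMs all 6 macrophage markers were present, with sums of 16652 CPM with CM-IL1, 18924 CPM with CM-Veh and 18989 CPM with RPMI. A mean of an EGC culture thus covers several cell types, and a shift in their numbers cannot be told apart from a change of RNA per cell. Il1r1, the gene removed in the BMDM donors, was listed at 9.57 CPM with CM-IL1, 8.69 CPM with CM-Veh and 2.88 CPM with RPMI. The sources used here do not say where the deletion lies relative to the 3′ tag, so these reads check nothing.

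Across all genes the log2 ratio of IL-1β over vehicle had a median of -0.14 in EGCs. In BMDMs the median was -0.19 for CM-IL1 over RPMI, -0.03 for CM-Veh over RPMI and -0.14 for CM-IL1 over CM-Veh. The ratios below are as deposited and stand against these medians.

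The first comparison asks how EGCs responded to IL-1β. Among the 9 members, 3 were higher in IL-1β-treated EGCs (Ereg, Hbegf and Adam17), against 4.25% of all genes, 4 were lower (Areg, Tgfa, Erbb2 and Errfi1), against 21.2% of all genes, and 2 were past the fold in neither direction (Nrg1 and Egfr). In either direction 7 were past it, against 25.5% of all genes. The members' log2 ratios ran from -1.74 to 2.73, with a median of -0.25.

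Ereg encodes epiregulin, a ligand of EGFR and ERBB4. Its mean was 186.0 CPM in IL-1β-treated EGCs and 28.1 CPM in vehicle-treated EGCs, a ratio of 6.63 (log2 2.73). This ratio ranked 8 from the highest of 13452 genes, and Ereg had the highest mean of the 5 ligand genes in both groups. Hbegf encodes heparin-binding EGF-like growth factor, which binds the same receptors. It averaged 11.99 CPM with IL-1β and 7.09 CPM with vehicle, a ratio of 1.69 (log2 0.76, rank 298). The 2 ligand genes that were higher thus differed widely in the size of the ratio.

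The other ligand genes went the opposite way or stayed within the fold. Areg, which encodes amphiregulin, had 4.84 CPM with IL-1β and 9.92 CPM with vehicle (log2 ratio -1.04). Tgfa, which encodes transforming growth factor alpha, had 1.27 CPM with IL-1β and 2.77 CPM with vehicle (log2 ratio -1.13), the lowest mean of any member. Nrg1, the gene of neuregulin-1, had 2.39 CPM with IL-1β and 2.85 CPM with vehicle (log2 ratio -0.25), which is within the fold. In vehicle-treated EGCs the ligand genes ranked Ereg, Areg, Hbegf, Nrg1 and Tgfa by mean, and in IL-1β-treated EGCs Ereg, Hbegf, Areg, Nrg1 and Tgfa. Which neighbours in these orders differ beyond the spread cannot be said.

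**Figure D1:**
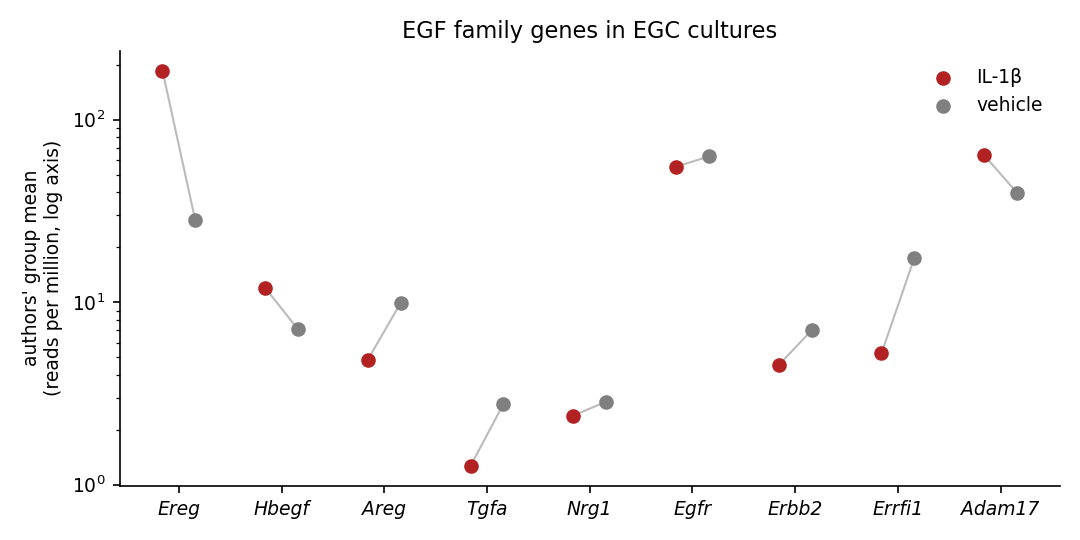
Authors' group means of the 9 EGF family genes in EGC cultures, in CPM on a log axis, with IL-1β in red and vehicle in grey and a line joining the 2 means of a gene. No error can be drawn, as values per library are not given. Ereg stands at 186.0 CPM with IL-1β and 28.1 CPM with vehicle, while Errfi1 stands at 5.23 CPM with IL-1β and 17.5 CPM with vehicle.

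Ereg and Areg are neighbours in the genome, in a cluster of EGF family ligand genes on mouse chromosome 5 (build GRCm38, which is mm10). GENCODE vM21 places Epgn at chr5:91027464-91035215, Ereg at chr5:91074622-91093646 and Areg at chr5:91139599-91148432, all on the plus strand, and Btc at chr5:91357261-91402994 on the minus strand. The gap between Ereg and Areg is 46.0 kb, and that between Areg and Btc is 208.8 kb. Within this cluster Ereg had a log2 ratio of 2.73 and Areg one of -1.04. Btc, the gene of betacellulin, had 6.23 CPM with IL-1β and 7.27 CPM with vehicle (log2 ratio -0.22), and Epgn, the gene of epigen, has no row in either table. Neighbouring ligand genes thus had means that differed in opposite directions.

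The remaining members lie elsewhere. Hbegf is on chromosome 18 (36504927 to 36515805, minus strand), Tgfa on chromosome 6 (86195223 to 86275719, plus strand) and Nrg1 on chromosome 8 (31814551 to 32884029, minus strand). Egfr (16752203 to 16918158) and Erbb2 (98412470 to 98437716) are both on the plus strand of chromosome 11. Errfi1 is on chromosome 4 (150853919 to 150868892, plus strand) and Adam17 on chromosome 12 (21323509 to 21373632, minus strand).

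Among the receptor genes, Egfr had 55.2 CPM in IL-1β-treated EGCs and 62.9 CPM in vehicle-treated EGCs, a log2 ratio of -0.19, close to the median of all genes. Erbb2 had 4.52 CPM with IL-1β and 7.01 CPM with vehicle (log2 ratio -0.63), just past the fold as deposited and within it, at -0.50, relative to the median of all genes. Erbb3, which encodes a receptor of neuregulin-1 and is not a member, had 23.3 CPM with IL-1β and 29.1 CPM with vehicle (log2 ratio -0.32), and Erbb4 has no row. No receptor gene had a higher mean with IL-1β.

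Errfi1 encodes MIG6, a protein that binds the kinase domain of EGFR and ERBB2 and blocks it, and whose gene is itself switched on by EGF receptor signals. Its mean was 5.23 CPM with IL-1β and 17.5 CPM with vehicle, a log2 ratio of -1.74 and the lowest of the members (412th from the lowest of all genes). Adam17, the gene of the protease that releases most EGFR ligands and TNF, had 63.8 CPM with IL-1β and 39.8 CPM with vehicle (log2 ratio 0.68, rank 392). The inhibitor gene and the protease gene thus had opposite directions in EGCs.

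Sequences upstream of the start were looked at for the members with an entry among RefSeq promoters of GRCm38.p6 (6 genes, 7 entries, each with 250 bases before the start and 50 after). The cyclic AMP response element, TGACGTCA, was searched on both strands. It was found in Areg and in 1 of the 2 entries of Errfi1, and in 1.79% of all 32851 promoters. The AP-1 motif (TGACTCA or TGAGTCA, 5.20% of all promoters) and the motif of EGR factors (GCGTGGGCG, 0.612%) were found in none of these 6 members, and among them the NF-kappa-B motif (8.46%) was found in Tgfa only. Ereg, Hbegf and Nrg1 were not searched. The motifs were chosen after the means were seen, and a match describes letters in a window and not a bound site. The stretches around the element end before the RefSeq start of the entry. They are shown because both entries carry the same letters at a like distance from that start, with the element in capitals. In Areg (chr5:91139498-91139585, plus strand) its first base lies 61 bases before the start, and in Errfi1 (chr4:150854979-150855066, plus strand) 51 bases before it. For Areg this start (91139599) is also where GENCODE begins the gene. For Errfi1 it (150855070) lies inside the gene as GENCODE places it, from 150853919 on, so the Errfi1 stretch is not upstream of the whole gene.
Areg: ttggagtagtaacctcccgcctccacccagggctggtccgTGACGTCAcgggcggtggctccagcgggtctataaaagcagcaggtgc
Errfi1: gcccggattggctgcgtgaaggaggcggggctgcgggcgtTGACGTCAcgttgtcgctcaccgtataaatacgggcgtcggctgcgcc

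The comparisons in BMDMs ask what medium of EGCs did to macrophages, with and without IL-1β on the EGCs. EGCs were kept in a neurobasal medium with supplements and EGF, so both conditioned media may differ from RPMI in the base medium and in added EGF too, which cannot be told apart from what EGCs released. BMDMs were grown in RPMI with serum and colony-stimulating factor 1 by the methods. Whether the RPMI of the control group held these is not stated, so they cannot be told apart either. The 3 comparisons share samples and are not independent. Of the 3 members with a row, 2 were higher with CM-IL1 than with RPMI (Hbegf and Errfi1), against 8.46% of all genes, and 1 was lower (Adam17), against 22.4% of all genes, which makes 3 in either direction, against 30.8%. With CM-Veh over RPMI the same 2 were higher, against 8.0% of all genes, and none was lower, against 10.8% (18.8% in either direction). Between the media, the same 2 were higher with CM-IL1 than with CM-Veh, against 2.71% of all genes, and none was lower, against 8.32% (11.0% in either direction). The 6 members without a row are Ereg, Areg, Tgfa, Nrg1, Egfr and Erbb2. Every row of this table reached a mean of at least 1.18 CPM in 1 group, and the level of a gene without a row is unknown.

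Hbegf had 118.9 CPM with CM-IL1, 33.1 CPM with CM-Veh and 5.08 CPM with RPMI. The mean was 23.4 times that of RPMI cells with CM-IL1 (log2 4.55, rank 13 of 11200 genes) and 6.53 times with CM-Veh (log2 2.71, rank 32). Between the media the ratio was 3.59 (log2 1.84, rank 11). The order of the groups was the same for Errfi1, with 19.2 CPM with CM-IL1, 8.69 CPM with CM-Veh and 2.26 CPM with RPMI. Its ratio was 8.48 for CM-IL1 over RPMI (log2 3.08, rank 44), 3.85 for CM-Veh over RPMI (log2 1.94, rank 79) and 2.20 between the media (log2 1.14, rank 61). The ligand gene and the inhibitor gene thus both had their highest mean with CM-IL1 and their lowest with RPMI.

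Adam17 had the reverse order, with 75.7 CPM with CM-IL1, 96.2 CPM with CM-Veh and 127.1 CPM with RPMI. Its log2 ratio was -0.75 for CM-IL1 over RPMI, -0.40 for CM-Veh over RPMI and -0.35 between the media, and only the first was past the fold. Set against the median of all genes, the first was -0.56, which is within it.

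**Figure D2:**
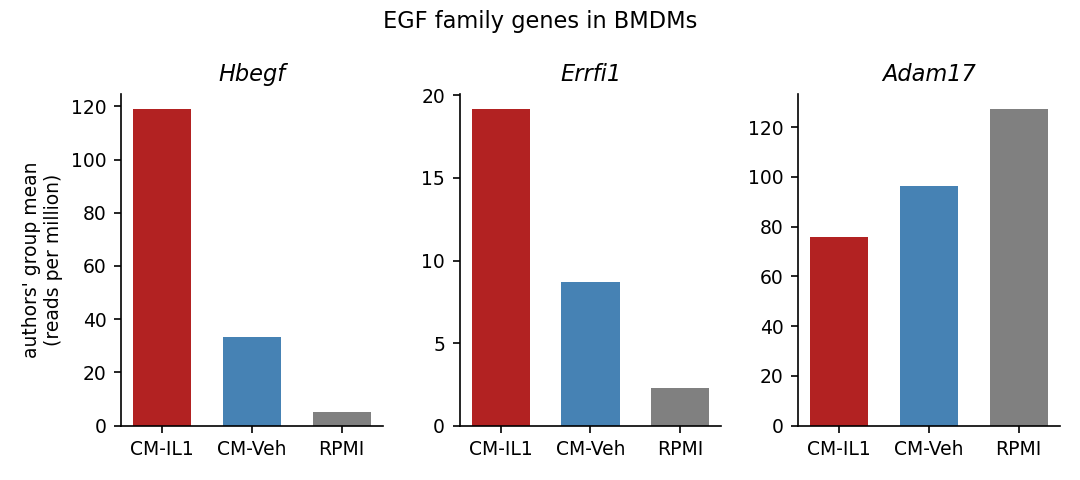
Authors' group means of Hbegf, Errfi1 and Adam17 in BMDMs, in CPM, with a separate axis from 0 for each gene and bars for CM-IL1, CM-Veh and RPMI. No error can be drawn. Hbegf stands at 118.9, 33.1 and 5.08 CPM in that order of groups, and Adam17 at 75.7, 96.2 and 127.1 CPM.

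The tables were scaled separately, so levels in EGCs and in BMDMs are set side by side with that limit. Hbegf and Errfi1 were measured in both. Hbegf was higher with IL-1β in EGCs (log2 0.76) and with CM-IL1 in BMDMs (log2 4.55 over RPMI). Errfi1 was lower with IL-1β in EGCs (log2 -1.74) and higher with CM-IL1 in BMDMs (log2 3.08 over RPMI). Adam17 was higher with IL-1β in EGCs (log2 0.68) and lower with CM-IL1 in BMDMs (log2 -0.75 over RPMI). The exposures lasted 24 h in EGCs and 3 h in BMDMs and used different agents, and the difference between the cell types was not tested.

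**Figure D3:**
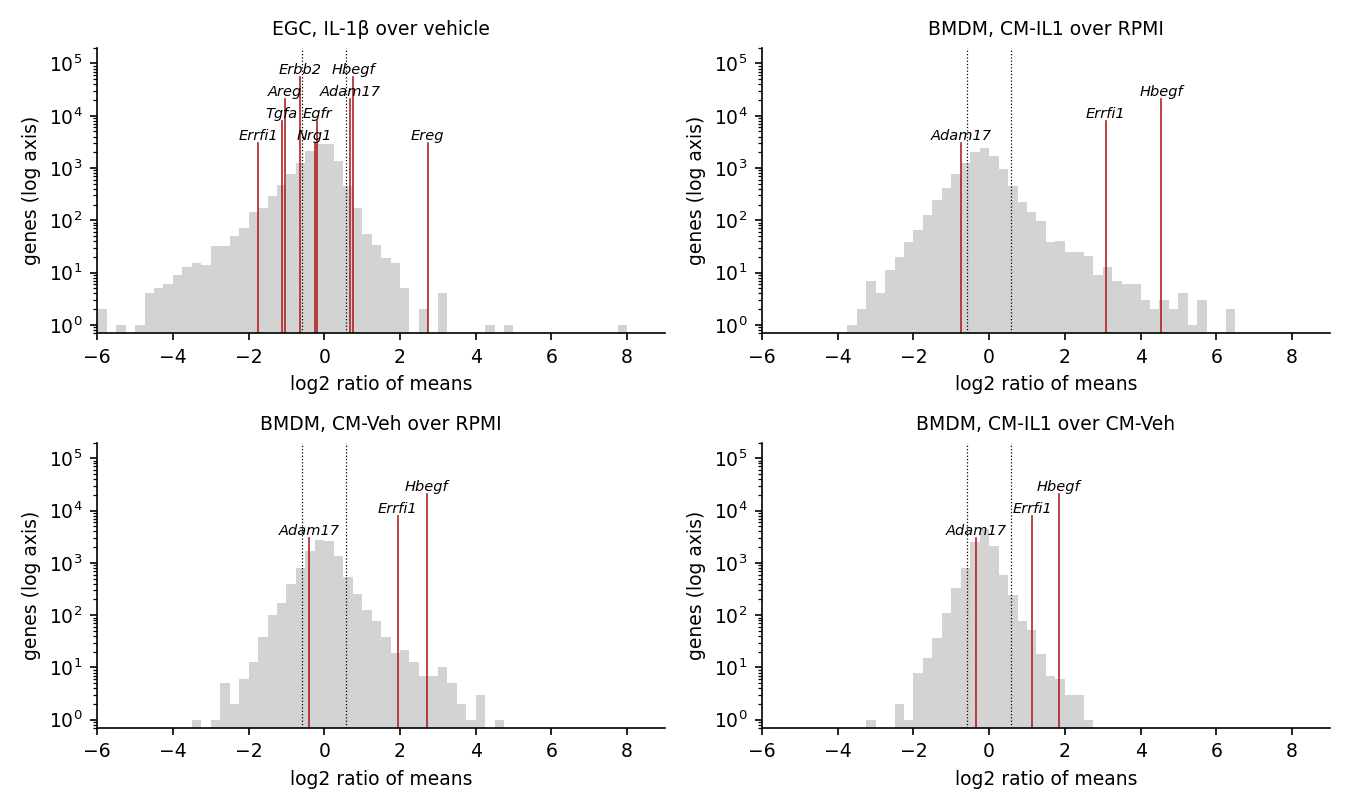
Log2 ratios of the authors' means of all genes (grey, counts on a log axis) in the 4 comparisons, with the members as red lines of arbitrary height and the 1.5-fold limits dotted. Ereg stands at 2.73 in EGCs, and Hbegf stands at 4.55 for CM-IL1 over RPMI, both far from the bulk of genes, while Egfr at -0.19 lies within it.

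The other genes of the pathway were counted by lists made for this purpose. Of all genes, 4.25% were higher and 21.2% lower with IL-1β in EGCs. In BMDMs, 8.46% were higher and 22.4% lower for CM-IL1 over RPMI, 8.0% higher and 10.8% lower for CM-Veh over RPMI, and 2.71% higher and 8.32% lower for CM-IL1 over CM-Veh. The lists are small, no count was tested against these shares, and nothing is called particular to a list. Of the genes that take part in ligand release, IL-1β gave 0 of 10 a higher and 2 a lower mean in EGCs, near the 21.2% of all genes that were lower. Adam9, a metalloprotease gene, had 2.06 CPM with IL-1β and 9.31 CPM with vehicle (log2 ratio -2.17). Cd9, the gene of a tetraspanin that associates with the HB-EGF precursor, had 34.6 CPM with IL-1β and 78.1 CPM with vehicle (log2 ratio -1.17). In BMDMs, 7 of the 10 genes with a row were higher and 0 were lower with CM-IL1 than with RPMI, with a median log2 ratio of 0.78 (8.46% of all genes were higher), and 6 were higher and 0 lower with CM-Veh, with a median of 0.70 (8.0% of all genes were higher). Timp3, the gene of an inhibitor of ADAM17, had 15.2 CPM with CM-IL1, 8.22 CPM with CM-Veh and 3.78 CPM with RPMI. Furin, whose product cuts the propeptide of ADAM17, had 173.4 CPM with CM-IL1, 113.7 CPM with CM-Veh and 59.4 CPM with RPMI. Rhbdf2, whose product carries ADAM17 to the cell surface, had 12.9 CPM with either conditioned medium and 6.42 CPM with RPMI. These genes were named for the size of their ratios, and 3 genes of the list with CM-IL1 and 4 with CM-Veh were within the fold of RPMI. Between the media, 2 of the 10 were higher with CM-IL1 (Timp3 and Furin).

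Of the adaptor genes of the receptors, 0 of 9 were higher and 2 lower with IL-1β in EGCs, a share of lower genes near that of all genes (21.2%). Gab1, a docking protein gene, had 7.201 CPM with IL-1β and 21.0 CPM with vehicle (log2 ratio -1.54), and Sos1, the gene of an exchange factor that activates RAS, had 19.3 CPM with IL-1β and 30.9 CPM with vehicle (log2 ratio -0.68). In BMDMs 0 of 9 were past the fold in each of the 3 comparisons.

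Of the genes of receptor turnover and inhibitors, 2 of 15 were higher and 4 lower with IL-1β in EGCs, against 4.25% and 21.2% of all genes. The higher ones were Ptpn1 and Ptpn12. Ptpn1 had 76.9 CPM with IL-1β and 50.7 CPM with vehicle (log2 ratio 0.60), and Ptpn12 had 89.3 CPM with IL-1β and 57.8 CPM with vehicle (log2 ratio 0.63). Lrig1, whose product lowers the amount of ERBB receptors, had 1.74 CPM with IL-1β and 7.58 CPM with vehicle (log2 ratio -2.12). Cblb, a ubiquitin ligase gene, had 9.67 CPM with IL-1β and 21.3 CPM with vehicle (log2 ratio -1.14), and Rnf41, a ubiquitin ligase gene whose product acts on ERBB3, had 5.33 CPM with IL-1β and 9.97 CPM with vehicle (log2 ratio -0.90). In BMDMs, 1 of 14 was higher (Cblb, with 24.8 CPM with CM-IL1 and 11.8 CPM with RPMI) and 1 was lower for CM-IL1 over RPMI. With CM-Veh over RPMI, 1 was higher (Rnf41, with 7.54 CPM with CM-Veh and 4.15 CPM with RPMI) and 0 were lower, and between the media 0 were higher and 1 was lower with CM-IL1.

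In the ERK and PI3K relay, IL-1β-treated EGCs had 1 of 17 genes higher and 4 lower, against 4.25% and 21.2% of all genes. Map2k1, the gene of the kinase MEK1, had 23.3 CPM with IL-1β and 83.6 CPM with vehicle (log2 ratio -1.85), and Mapk3, the gene of ERK1, had 102.0 CPM with IL-1β and 163.1 CPM with vehicle (log2 ratio -0.68). In BMDMs, 1 of 17 was higher and 0 were lower with CM-IL1 than with RPMI and with CM-Veh than with RPMI, and 0 were past the fold between the media.

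Feedback genes of ERK signalling, whose products dampen the pathway that switches them on, had list medians of opposite sign in the 2 cell types, a difference that was not tested. With IL-1β in EGCs, 1 of 8 was higher and 4 were lower, against 4.25% and 21.2% of all genes, with a median log2 ratio of -0.42. Dusp6, the gene of a phosphatase of ERK, had 3.11 CPM with IL-1β and 21.8 CPM with vehicle (log2 ratio -2.81). Spry2, a Sprouty inhibitor gene, had 37.1 CPM with IL-1β and 97.5 CPM with vehicle (log2 ratio -1.39), and Spry1 had 2.88 CPM with IL-1β and 5.15 CPM with vehicle (log2 ratio -0.84). In BMDMs, 5 of the 6 with a row were higher and 0 lower with CM-IL1 than with RPMI (median log2 ratio 1.23, 8.46% of all genes higher), and 4 were higher and 0 lower with CM-Veh (median 1.04, 8.0% of all genes higher). Dusp5, the gene of a nuclear ERK phosphatase, had 132.0 CPM with CM-IL1, 78.4 CPM with CM-Veh and 16.03 CPM with RPMI. Dusp6 had 57.0 CPM with CM-IL1, 54.8 CPM with CM-Veh and 21.2 CPM with RPMI, and Spry2 had 19.7 CPM with CM-IL1, 20.6 CPM with CM-Veh and 7.60 CPM with RPMI. Between the media, 1 of the 6 was higher with CM-IL1 (Dusp5). Dusp6 and Spry2, like Errfi1, were thus lower with IL-1β in EGCs and higher with either conditioned medium than with RPMI in BMDMs. Between the media, Dusp6 and Spry2 were within the fold, while Errfi1 was higher with CM-IL1.

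Early response genes of growth factors were mixed in EGCs, where 4 of 17 were higher and 5 lower with IL-1β, against 4.25% and 21.2% of all genes. Fosl1, the gene of the AP-1 subunit FRA1, had 9.99 CPM with IL-1β and 1.11 CPM with vehicle (log2 ratio 3.17). Fos had 15.04 CPM with IL-1β and 43.9 CPM with vehicle (log2 ratio -1.55), and Junb had 34.5 CPM with IL-1β and 98.0 CPM with vehicle (log2 ratio -1.51), both AP-1 subunits too. In BMDMs, 10 of 16 were higher and 1 was lower with CM-IL1 than with RPMI, against 8.46% and 22.4% of all genes, and likewise with CM-Veh than with RPMI, against 8.0% and 10.8%. Atf3 was the lower gene in all comparisons of BMDMs, with 49.1 CPM with CM-IL1, 92.0 CPM with CM-Veh and 146.6 CPM with RPMI. Ier3, an immediate early gene, had 686.4 CPM with CM-IL1, 308.0 CPM with CM-Veh and 53.7 CPM with RPMI. Plaur, the gene of the urokinase receptor, had 234.7 CPM with CM-IL1, 124.4 CPM with CM-Veh and 30.8 CPM with RPMI, and Phlda1, an early response gene, had 87.2 CPM with CM-IL1, 54.6 CPM with CM-Veh and 15.5 CPM with RPMI. Between the media, 4 were higher and 1 was lower with CM-IL1, Egr2 with 23.1 CPM with CM-IL1 and 10.9 CPM with CM-Veh among the higher. These genes also answer to many signals other than EGF receptors, and their part in the members' means was not tested.

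**Figure D4:**
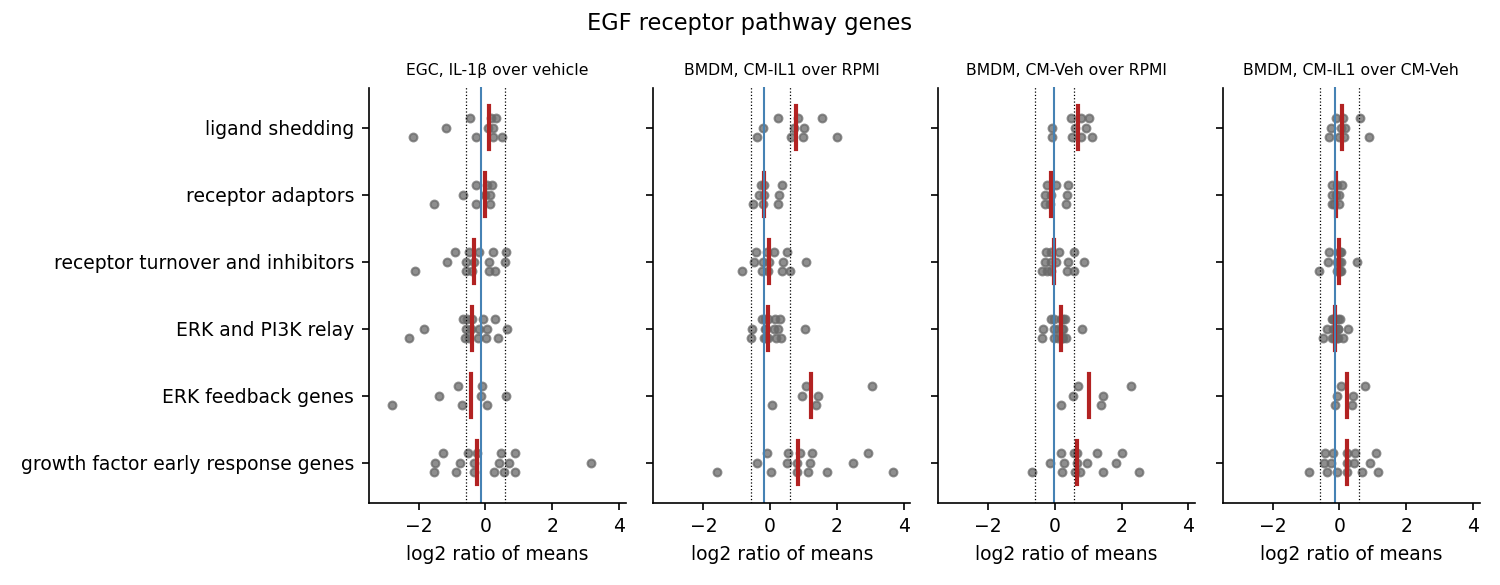
Log2 ratios of the authors' means for 6 lists of EGF receptor pathway genes in the 4 comparisons, 1 point per gene, with the list median in red, the median of all genes in blue and the 1.5-fold limits dotted. The ERK feedback genes have a median of -0.42 in EGCs and of 1.23 for CM-IL1 over RPMI in BMDMs, while the list median of the receptor adaptors stays near the median of all genes.

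Genes with the most similar pattern were sought by the distance between log2 ratios, as a description. Hbegf and Errfi1 were compared over 3 ratios (IL-1β over vehicle, CM-IL1 over RPMI and CM-Veh over RPMI) among 8174 other genes, those with rows in both tables and a mean of at least 5 CPM in 1 group of each. Both BMDM ratios share the RPMI mean. The nearest to Hbegf were Sphk1 at a distance of 0.69, Ccl2 at 0.72, Tgm2 at 0.88, Flrt3 at 0.90 and Ier3 at 0.91. In EGCs the log2 ratio was 0.70 for Sphk1, 0.80 for Ccl2 and 0.56 for Ier3, but -0.02 for Tgm2 and -0.11 for Flrt3. With RPMI, Sphk1 had only 1.01 CPM and Flrt3 1.09 CPM. The nearest to Errfi1 were Ppp1r3b at 0.17, Cd14 at 0.80, Vegfa at 0.86, Bhlhe40 at 1.02 and Mxi1 at 1.03. Ppp1r3b, the gene of a glycogen-targeting phosphatase subunit, had 2.95 CPM with IL-1β and 9.93 CPM with vehicle in EGCs, and 62.2 CPM with CM-IL1, 26.5 CPM with CM-Veh and 6.59 CPM with RPMI in BMDMs. Ereg has a row in EGCs only and could be compared over 1 ratio, among 10564 genes. The nearest were Mir684-2 at 0.07, Cxcl1 at 0.33, Slc15a3 at 0.41, Fosl1 at 0.44 and Gmpr2 at 0.59, a likeness of size in 1 comparison only.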

How the data were processed

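RNA of 18 libraries in 5 groups was sequenced with a 3′ mRNA kit that keeps the strand, single-end. The submitters' processing notes name cutadapt, STAR and Partek with the build mm10, without versions. The authors deposited 2 tables of their own comparisons, which hold the authors' least-squares means per group, taken here as CPM. Beside these stand p-values, adjusted p-values, ratios and folds of the authors' tests, which were not used. No column (0) held values per sample, so the counts per library that were planned for could not be tested.

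That the deposited means are CPM was inferred from their low values. Repeated differences between them spanned 3 independent steps in each EGC group and 4 in each BMDM group, as many as libraries, and 247 to 306 of the 600 lowest means of a group lay on these steps once an offset of 0.0001 was taken off, against 0 to 6 without. The search did not place the other low means on the steps, for a reason that was not examined. Division by gene length would leave no such steps, as checked on simulated data. Recovery of the depth of each library from the steps was also tried, under 5 rules for selecting among equivalent solutions, applied to the real tables. Rules disagreed on the depths, so none of the results is used and depth is unknown.

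Ratios of the deposited means were computed with Python 3.11.15, pandas 2.3.3 and numpy 2.4.6, with no pseudocount and no filter, and checked on simulated data (100 genes changed 3-fold). The simulated means held no noise, so this checked the arithmetic only and not calls on means that carry error. A gene was called past 1.5-fold, the fold limit in the study's methods. Those methods also set a limit on the adjusted p-value, which was not applied here, so the calls are not those of the study. The alternatives were fold limits of 2 and 1.2, a pseudocount of 1, minimum means of 1 and 10, centring on the median and rescaling without the 10 highest genes. The members and lists were chosen with earlier results of these data known. The text names all members, up to 3 genes per list and comparison with the largest ratio past the fold and a mean of at least 5, and the 5 nearest genes to Ereg, Hbegf and Errfi1. Marker lists are given by their sums. Some genes that this rule names are left out of the text, while list counts include them. Ptpn1, Ptpn12 and Atf3 are named beyond this rule, to show genes of the other direction. Positions come from GENCODE vM21 and promoters from RefSeq. Symbols turned into dates (11 rows in EGCs, 7 in BMDMs) were left unnamed.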

Additional observations from a re-analysis of the deposited data

How the results depend on the processing

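No paired analysis was possible because the tables hold group means and no value per library, and leaving out each library in turn could not be run for the same reason. The number of members past the fold in EGCs was 7, and 4 at a fold limit of 2 (1 higher) and 4 among genes with a mean of at least 10 (1 lower). For CM-IL1 over RPMI, 0 members were lower at a fold limit of 2 and 0 after centring, against 1 (Adam17). Of all 11200 genes, 943 were lower at a fold limit of 2 and 1618 after centring. For CM-Veh over RPMI, 1 member was lower at a fold limit of 1.2, as were 3123 of all 11200 genes. Among genes with a mean of at least 10, 1 member in all was past 1.5-fold, as higher. Of those 7237 genes, 539 were higher and 456 lower. For CM-IL1 over CM-Veh, 1 member was lower at a fold limit of 1.2, as were 3558 of all 11200 genes. Fold limits, minimum means and a pseudocount cannot change the direction of a ratio. Centring and rescaling can, and under these no member changed direction.

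Centring moved the balance of higher to lower genes over all genes: 936 higher and 2236 lower in EGCs, against 572 and 2855 as deposited, 1440 and 1618 for CM-IL1 over RPMI, against 947 and 2508, and 501 and 540 between the media, against 304 and 932. Ratios that rest on low means, such as those of Tgfa and Nrg1 in EGCs and of Errfi1 over RPMI in BMDMs, have an error that group means cannot show.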
